A study of Sus scrofa with 9 samples.

Results

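Heat shock proteins and their cochaperones were followed in pig (Sus scrofa) testis cells at 3 stages of sperm formation. The genes were taken by symbol from the whole table: every gene named HSPA, HSPB, HSPD, HSPE, HSPH, HSP90, DNAJA, DNAJB or DNAJC with its number, CCT2 to CCT8, and TCP1. This gave 69 genes of 22342, of which 14749 carried a symbol. All 69 also passed the filter on low counts, with 16802 genes passing in all. They comprise 3 HSP90 genes, 8 HSP70 genes, 3 HSP110 genes, the HSP60 gene HSPD1 and its lid HSPE1, 5 small heat shock proteins, 4 DNAJA, 10 DNAJB and 25 DNAJC genes, and 9 genes of the chaperonin CCT family. HSPA2, HSPA6, HSPB2, HSPB7, HSPB11, CCT6A, DNAJB3, DNAJB7, DNAJB8, DNAJC5G, DNAJC21 and DNAJC30 were matched by no symbol in the table and were not analysed here. HSPA1A and HSPA1B were not matched under those symbols either, but are RefSeq synonyms of HSP70.2, which is described with HSPA1L.

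The groups were spermatogonia, the mitotic germ cells that enter sperm formation, with libraries numbered 1, 2 and 3, spermatocytes, the cells in meiosis, with libraries 2, 3 and 4, and round spermatids, the haploid cells that meiosis leaves, with libraries 1, 2 and 3. The labels name testis as the tissue and no breed, age, treatment or method of cell separation. The labels do not tie libraries to separate animals, and the p-values below therefore reflect library-to-library spread that could be technical. Spermatocyte columns are headed with a short form of pachytene, a stage of meiosis, and spermatogonia columns with c-kit, the receptor KIT; the match of these columns to the labels rests on those names.

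Heat shock proteins bind unfolded stretches of other proteins. HSP70 proteins work in cycles of ATP: J-domain proteins (DNAJA, DNAJB, DNAJC) bring clients and start ATP hydrolysis, and HSP110 proteins exchange the nucleotide. HSP90 takes over late folding intermediates such as kinases and steroid receptors, CCT is a closed ring that folds actin and tubulin, HSP60 with HSP10 does similar work inside mitochondria, and small heat shock proteins hold unfolded clients without ATP. The testis has long been known for chaperone forms made mainly in germ cells, and in mice several of them, among them HSPA2, HSP90AA1 and HSPA4L, are needed for male fertility.

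Levels are given as CPM, estimated counts scaled to library size and TMM factors (which equalise libraries for composition), or as TPM, which also divides by gene length and allows genes to be compared. One estimated count was worth 0.0142 to 0.0218 CPM, in libraries of 47963279 to 64639201 counts. Fold changes are on the log2 scale with standard errors (SE), and a gene was called where edgeR's quasi-likelihood test over all 16802 genes gave a Benjamini-Hochberg adjusted p under 0.05. Stage markers bore out the labels in part. The meiotic gene SYCP2 stood at 112 to 118 CPM in spermatogonia, 890.0 to 1165 CPM in spermatocytes and 38.7 to 64.8 CPM in round spermatids. KIT stood at 6.22 to 6.54 CPM in spermatogonia, 6.64 to 8.07 CPM in spermatocytes and 22.8 to 25.7 CPM in round spermatids, so that the gene naming the spermatogonia columns was highest in round spermatids. The other 4 spermatogonial markers were divided. UCHL1 (24.9 to 27.6 CPM), STRA8 (5.33 to 5.75 CPM) and DMRT1 (51.3 to 53.4 CPM) were highest in spermatogonia, against at most 2.45, 1.76 and 32.1 CPM in spermatocytes and 2.68, 2.80 and 46.0 CPM in round spermatids, while ZBTB16 was at 3.50 to 4.14 CPM in spermatogonia, 1.47 to 1.75 CPM in spermatocytes and 4.16 to 4.44 CPM in round spermatids. Markers of cells outside the germ line differed between stages. Summed over 8 smooth muscle markers the level was 20.6 to 21.6 CPM in spermatogonia, 11.1 to 26.5 CPM in spermatocytes and 4909 to 6206 CPM in round spermatids, and 8 of 8 were called higher in round spermatids than in either other stage. Sertoli cell markers (12 genes) summed to 256 to 263 CPM in spermatogonia, 38.0 to 56.4 CPM in spermatocytes, where AMH was at 0 in all libraries, and 1065 to 1163 CPM in round spermatids. Of these, 11 of 12 were called higher in round spermatids than in spermatocytes, as were 6 of 6 endothelial and 6 of 7 tested leukocyte markers. Endothelial markers (6 genes) summed to 26.2 to 27.2, 6.09 to 22.8 and 345 to 387 CPM, leukocyte markers (8 genes) to 2.17 to 2.61, 2.79 to 4.13 and 26.2 to 33.9 CPM, and Leydig cell markers (8 genes) to 336 to 357, 16.0 to 20.2 and 55.9 to 60.6 CPM, each in the order spermatogonia, spermatocytes, round spermatids. Every value higher in round spermatids below stands beside these somatic markers, and their part in it was not tested. Leydig cell markers had their highest sum in spermatogonia. Of the 8, all were called lower in spermatocytes, and in round spermatids 6 were called lower and 2 higher than in spermatogonia. Values higher in spermatogonia stand beside these, and the part of Leydig cells in them was not tested either. In bulk RNA a smaller share of a cell type and less RNA per cell cannot be told apart.

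Libraries of a stage were unequally close. The mean chi-square per gene between pairs was 2.87 to 3.58 for spermatogonia, 69.1 to 88.3 for spermatocytes, and 22.7 to 321 for round spermatids, where library 2 stood apart from 1 and 3. Counting error alone would give about 1, and the spermatogonia libraries came closest to that. The fit nevertheless used a shared estimate of the spread for all stages. Late germ cell markers (10 genes) summed to 3450 to 3522 CPM in spermatogonia, 3440 to 4856 CPM in spermatocytes, with library 3 lowest, and 6107 to 8834 CPM in round spermatids, with library 2 lowest. These markers of later stages were thus present in the spermatogonia libraries as well. PRM1 led the round spermatid sum, with a mean of 3086 CPM, and the markers were divided. In round spermatids over spermatogonia 4 of 10 were called higher and 3 lower (ACRV1, SPACA1 and ACR), beside 39.5% and 39.7% over all genes.

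More chaperone genes were higher in spermatocytes than in spermatogonia than were lower, and the balance was the other way between round spermatids and spermatocytes, but both balances turned without normalization factors. Against spermatogonia, 32 of 69 genes (46.4%) were called higher in spermatocytes, where the share over all genes was 29.3%, and 17 (24.6%) were called lower, where it was 44.0% over all genes. Against spermatocytes, 26 (37.7%) were called higher in round spermatids and 34 (49.3%) lower, with 42.7% and 36.4% over all genes. Set against spermatogonia directly, 31 (44.9%) were called higher in round spermatids and 25 (36.2%) lower, close to the 39.5% and 39.7% over all genes. The median log2 fold change of the 69 genes was 0.18 against -0.32 over all genes for spermatocytes over spermatogonia, -0.37 against 0.19 for round spermatids over spermatocytes, and 0.17 against 0.0029 for round spermatids over spermatogonia. Without round spermatid library 2 the last pair was 0.33 against 0.015, a distance of 0.32 in place of 0.17. HSPB3 passed the filter through round spermatids alone, and without it 25 of 68 genes (36.8%) were called higher in round spermatids than in spermatocytes, 30 of 68 (44.1%) higher than in spermatogonia, and the medians were 0.22, -0.39 and 0.16. Scaling moved both medians together: without normalization factors the all-gene medians were -0.74, 0.64 and 0.04 and those of the 69 genes -0.24, 0.08 and 0.21, in the same order of comparisons. Without those factors 24 of the 69 genes were called higher and 28 lower in spermatocytes than in spermatogonia, and 30 higher and 24 lower in round spermatids than in spermatocytes. The distance of the chaperone median from the all-gene median was 0.51, -0.56 and 0.17 with TMM factors and 0.51, -0.56 and 0.17 without. On deposited TPM with a pseudocount of 1 the distances were 0.095, -0.50 and 0.066, and 19 genes were called higher and 25 lower in spermatocytes than in spermatogonia, so that this balance turned there too. On TPM 21 were called higher and 33 lower in round spermatids than in spermatocytes, and 18 higher and 33 lower in round spermatids than in spermatogonia.

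Sorted by the stage in which a gene was called above both others, 23 of the 69 (33.3%) were highest in round spermatids, 21 (30.4%) in spermatocytes and 6 (8.70%) in spermatogonia, with 19 in no stage. Over all genes these shares were 30.1%, 19.5% and 21.5%. Without HSPB3, 22 of 68 (32.4%) were highest in round spermatids. The classes divided. Round spermatids held the highest level of 7 of 8 HSP70 genes, 3 of the 4 small heat shock proteins other than HSPB3 and both HSP60 and HSP10, and spermatocytes that of 2 of 3 HSP90, 2 of 3 HSP110, 4 of 10 DNAJB, 9 of 25 DNAJC and 3 of 9 CCT genes.

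Some of these calls depended on the scale. Of 49 members called in spermatocytes over spermatogonia, 5 lost the call without normalization factors (CCT2, DNAJC12, DNAJC19, HSPA9 and HSPA14) and 3 changed sign (DNAJB6, DNAJB11 and TCP1). With RLE size factors 5 others lost it (DNAJB1, DNAJC18, DNAJC28, HSP90AB1 and HSPE1). On TPM the first 8 were lost or changed sign as well, together with DNAJA2, DNAJB9, DNAJC16, HSP90B1 and HSPH1. Of 60 members called in round spermatids over spermatocytes, 6 lost the call without normalization factors (CCT5, DNAJA3, DNAJB1, DNAJC1, DNAJC8 and DNAJC17) and 4 changed sign (CCT4, DNAJA1, DNAJB9 and DNAJB13), DNAJA2 lost it with RLE factors, and 7 lost it on TPM (CCT4, DNAJA2, DNAJB13, DNAJC6, DNAJC10, HSPA9 and HSPH1). Of 56 called in round spermatids over spermatogonia, none was lost without normalization factors or with RLE factors. On TPM 7 lost the call (DNAJA1, DNAJA2, DNAJA4, DNAJB5, DNAJC2, HSPA1L and HSPA12B) and 6 changed sign (CCT8, DNAJB9, DNAJC1, DNAJC5, DNAJC10 and HSPA14).

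**Figure D1:**
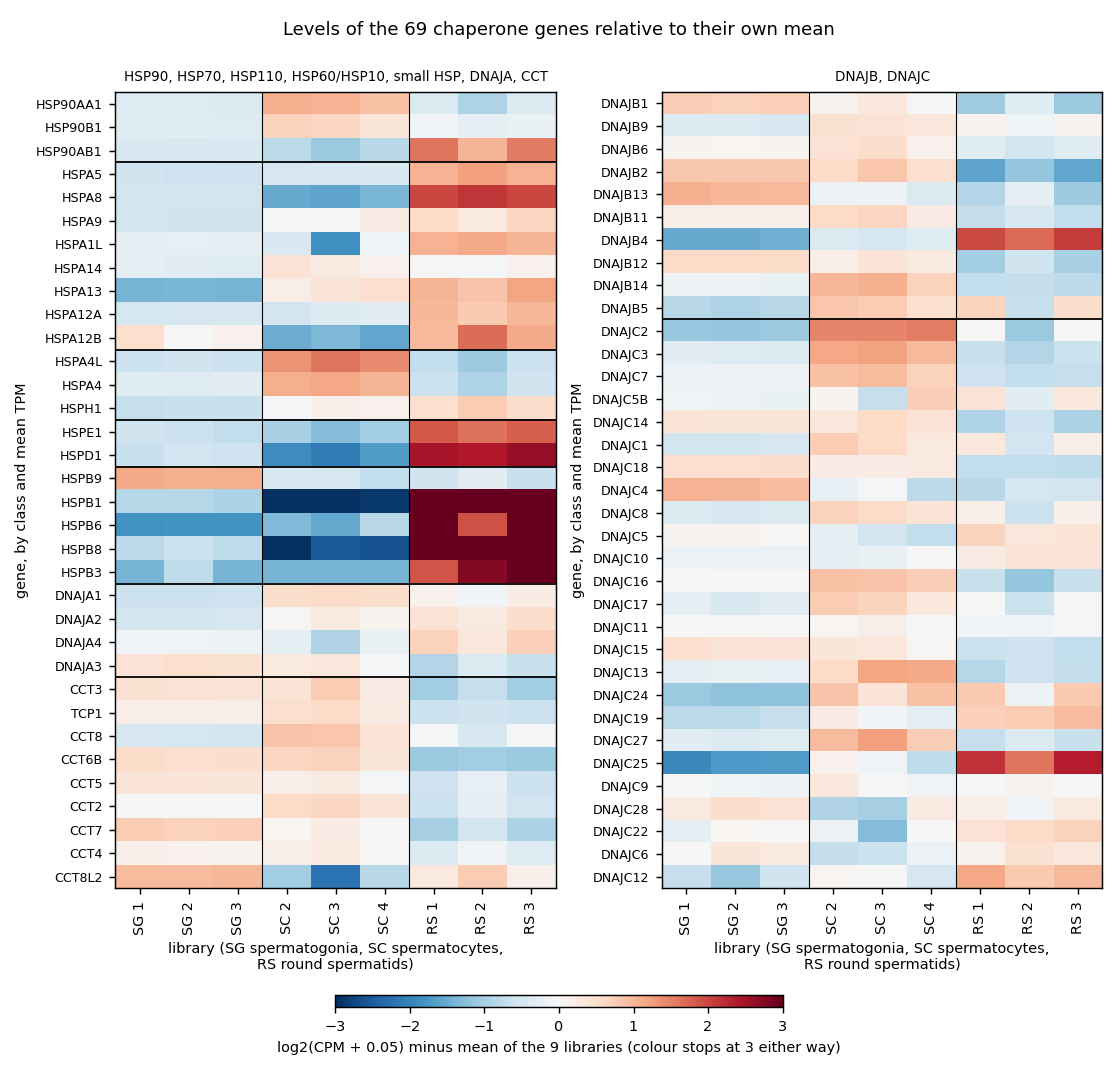
Heat map of the 69 chaperone genes (rows, by class and mean TPM) in the 9 libraries (columns), coloured by log2(CPM + 0.05) minus the mean of the gene's 9 values. HSP70 genes other than HSPA14, HSP60/HSP10 and all small heat shock proteins but HSPB9 are reddest in round spermatids, and HSP90AA1, HSPA4, HSPA4L, DNAJC2 and DNAJC3 are reddest in spermatocytes.

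Among HSP90 genes the cytosolic pair ran in opposite directions. HSP90AA1, the inducible cytosolic form, stood at 3185, 3149.8 and 3072 CPM in spermatogonia, 8779, 8462 and 7584 CPM in spermatocytes and 3041, 2175 and 3085 CPM in round spermatids. Spermatocytes lay above every library of the other stages, 2.64-fold above spermatogonia (log2 1.40 ± 0.15 SE, edgeR adjusted p = 1.55e-05), while round spermatids, with library 2 lowest, were 2.99-fold below spermatocytes (log2 -1.58 ± 0.15 SE, edgeR adjusted p = 2.97e-06). Round spermatids and spermatogonia overlapped for this gene (log2 -0.18, edgeR adjusted p = 0.273). HSP90AB1, the constitutive cytosolic form, stood at 286, 278 and 283 CPM in spermatogonia, 222, 179 and 218 CPM in spermatocytes and 1185, 785 and 1151 CPM in round spermatids. It was 5.04-fold higher in round spermatids than in spermatocytes (log2 2.33 ± 0.17 SE, edgeR adjusted p = 3.48e-07) and 3.69-fold higher than in spermatogonia (log2 1.88 ± 0.16 SE, edgeR adjusted p = 1.96e-06), without overlap. Its smaller difference between spermatocytes and spermatogonia (log2 -0.45, edgeR adjusted p = 0.0248) was no longer called with RLE size factors (log2 -0.27, edgeR adjusted p = 0.117). HSP90AB1 lost its call of spermatocytes over spermatogonia when any of libraries spermatogonia 1, 2 and 3 and spermatocyte 3 was left out (edgeR adjusted p = 0.0545 to 0.0881). By TPM, HSP90AB1 amounted to 0.0821 ± 0.0019 of HSP90AA1 in spermatogonia, 0.0229 ± 0.0034 in spermatocytes and 0.342 ± 0.013 in round spermatids (SD, n = 3 each), with no overlap between stages. HSP90AA1 was nonetheless the more abundant of the pair in every library, with 3436 ± 46.4 TPM in spermatogonia, 6295 ± 138 TPM in spermatocytes and 1964 ± 181 TPM in round spermatids (SD, n = 3 each). In spermatocytes it ranked 9 of all genes in the table. HSP90B1, the form of the endoplasmic reticulum (GRP94), stood at 566, 563 and 554 CPM in spermatogonia, 1165, 1119 and 937 CPM in spermatocytes and 679, 591 and 629 CPM in round spermatids. Its spermatocyte libraries were highest without overlap, log2 0.94 ± 0.11 SE over spermatogonia (edgeR adjusted p = 3.66e-05), and round spermatids lay log2 -0.76 ± 0.11 SE from spermatocytes (edgeR adjusted p = 9.85e-05). Its difference between round spermatids and spermatogonia was not called, at log2 0.17, and was -0.44 on TPM. There the call of spermatocytes over spermatogonia was also lost (limma adjusted p = 0.0654).

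HSP110 genes, the nucleotide exchange factors of HSP70, split in the same way. HSPA4L, the form enriched in mouse germ cells, stood at 482, 500.0 and 479.8 CPM in spermatogonia, 1930.2, 2302 and 2001 CPM in spermatocytes and 449, 354 and 486 CPM in round spermatids. It was 4.26-fold higher in spermatocytes than in spermatogonia (log2 2.09 ± 0.14 SE, edgeR adjusted p = 1.15e-06) and 4.84-fold lower in round spermatids than in spermatocytes (log2 -2.27 ± 0.14 SE, edgeR adjusted p = 1.19e-07). HSPA4 followed with 243, 242 and 249 CPM in spermatogonia, 671, 702 and 635 CPM in spermatocytes and 202, 165 and 207 CPM in round spermatids. Both genes peaked in spermatocytes without overlap, and HSPA4 rose by log2 1.45 ± 0.11 SE over spermatogonia (edgeR adjusted p = 2.38e-06). HSPA4L nevertheless gained on HSPA4: their TPM ratio was 1.49 ± 0.055 in spermatogonia, 2.32 ± 0.15 in spermatocytes and 1.67 ± 0.075 in round spermatids (SD, n = 3 each). HSPH1, the stress-inducible member of the class, climbed at each stage, with 127, 128 and 129 CPM in spermatogonia, 201, 227 and 223 CPM in spermatocytes and 286, 347 and 297 CPM in round spermatids. Its log2 fold changes were 0.76 for spermatocytes over spermatogonia and 0.51 for round spermatids over spermatocytes (edgeR adjusted p = 9.40e-05 and 0.00103). On TPM neither step was called. The difference between round spermatids and spermatogonia (log2 1.28 ± 0.11 SE, edgeR adjusted p = 1.48e-06) was called on TPM too.

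All 8 HSP70 genes were called higher in round spermatids than in spermatogonia, also with RLE factors and without normalization factors, and 5 of 8 on TPM, where HSPA14 turned negative. Over all genes 39.5% were called higher. HSPA8, the constitutive cytosolic HSC70, had the largest difference between round spermatids and spermatocytes in the class. It stood at 220.4, 222 and 226 CPM in spermatogonia, 114, 109.9 and 127 CPM in spermatocytes and 1323, 1455 and 1327 CPM in round spermatids. Round spermatids were 11.7-fold above spermatocytes (log2 3.54 ± 0.11 SE, edgeR adjusted p = 2.21e-09), and spermatocytes were 1.90-fold below spermatogonia (log2 -0.93 ± 0.10 SE, edgeR adjusted p = 1.74e-05). HSPA5, the BiP of the endoplasmic reticulum, was higher in round spermatids, with 525, 521 and 518 CPM in spermatogonia, 563, 568 and 578 CPM in spermatocytes and 1644, 1890.3 and 1633 CPM in round spermatids. The difference from spermatocytes was log2 1.60 ± 0.10 SE (edgeR adjusted p = 1.45e-07). That between spermatocytes and spermatogonia was not called (log2 0.13, edgeR adjusted p = 0.256) and turned to -0.29 without normalization factors. In TPM, HSPA5 exceeded HSPA8 by a ratio of 2.35 ± 0.047 in spermatogonia, 4.91 ± 0.32 in spermatocytes and 1.27 ± 0.037 in round spermatids (SD, n = 3 each).

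HSPA1L, an HSP70 known from spermatids in other mammals, stood at 56.3, 57.2 and 54.8 CPM in spermatogonia, 49.1, 18.9 and 62.3 CPM in spermatocytes and 141, 149 and 138 CPM in round spermatids. Round spermatids were above all other libraries, log2 1.71 ± 0.33 SE over spermatocytes (edgeR adjusted p = 6.54e-04), and spermatocyte library 3 stood well under its neighbours, as it did in the late germ cell markers. Without that library the difference was log2 1.35 (edgeR adjusted p = 8.24e-06). The gene spans 23909960 to 23938678 of chromosome 7 in RefSeq's Sscrofa11.1. HSP70.2 lies inside this span at 23925929 to 23927854. RefSeq gives HSPA1A and HSPA1B as its synonyms, so it is the inducible HSP70 and not the HSPA2 known as Hsp70-2 in mice. Near-identical copies can share reads, so both values are uncertain. HSP70.2 was not taken in by the choice of symbols and was chosen after its values were seen. It stood at 24.1, 23.1 and 24.7 CPM in spermatogonia, 8.92, 7.92 and 5.89 CPM in spermatocytes and 1033, 1120.2 and 1132 CPM in round spermatids. Its round spermatid libraries were higher than all others by a log2 fold change of 7.17 over spermatocytes and 5.52 over spermatogonia (edgeR adjusted p = 1.04e-09 and 4.35e-09).

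The remaining HSP70 genes were less abundant or changed less. HSPA9, the mitochondrial mortalin, rose by stage, with 141, 137 and 138 CPM in spermatogonia, 203, 208 and 241 CPM in spermatocytes and 316, 255 and 327 CPM in round spermatids, by log2 0.65 at the first step and 0.46 at the next (edgeR adjusted p = 6.91e-04 and 0.0046). These calls were lost on TPM (limma adjusted p = 0.54 for spermatocytes over spermatogonia and 0.0608 for round spermatids over spermatocytes). HSPA13, a microsomal HSP70, also rose at each stage, with 15.2, 15.3 and 15.3 CPM in spermatogonia, 45.8, 52.6 and 56.8 CPM in spermatocytes and 80.5, 72.1 and 91.4 CPM in round spermatids. Its fold changes were log2 1.76 ± 0.13 SE for spermatocytes over spermatogonia and 0.65 ± 0.12 SE for round spermatids over spermatocytes (edgeR adjusted p = 1.57e-06 and 5.41e-04). HSPA14, which sits with DNAJC2 on the ribosome, was the HSP70 gene not called highest in round spermatids. It stood at 28.3, 27.7 and 27.0 CPM in spermatogonia, 46.5, 41.7 and 37.8 CPM in spermatocytes and 35.3, 33.8 and 37.7 CPM in round spermatids. Round spermatids over spermatocytes was not called for HSPA14 (log2 -0.24, edgeR adjusted p = 0.0662) and turned to 0.22 without normalization factors. Its difference between round spermatids and spermatogonia (log2 0.37, edgeR adjusted p = 0.0104) turned to -0.24 on TPM. HSPA14 lost its call of round spermatids over spermatogonia without library spermatogonia 3 (log2 0.34, edgeR adjusted p = 0.0519). HSPA12A stood at 32.8, 28.6 and 32.9 CPM in round spermatids, against 11.1, 12.4 and 13.1 CPM in spermatocytes (log2 1.37, edgeR adjusted p = 1.35e-06). HSPA12B, a form of endothelial cells, stood at 4.23, 6.88 and 4.71 CPM in round spermatids, against 0.725, 0.808 and 0.689 CPM in spermatocytes (log2 2.83, edgeR adjusted p = 1.60e-06). Neither gene's libraries overlapped between these stages. HSPA12B shared the higher round spermatid level of the endothelial markers, as of the smooth muscle, Sertoli and leukocyte markers. The part of these cell types in its level was not tested.

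**Figure D2:**
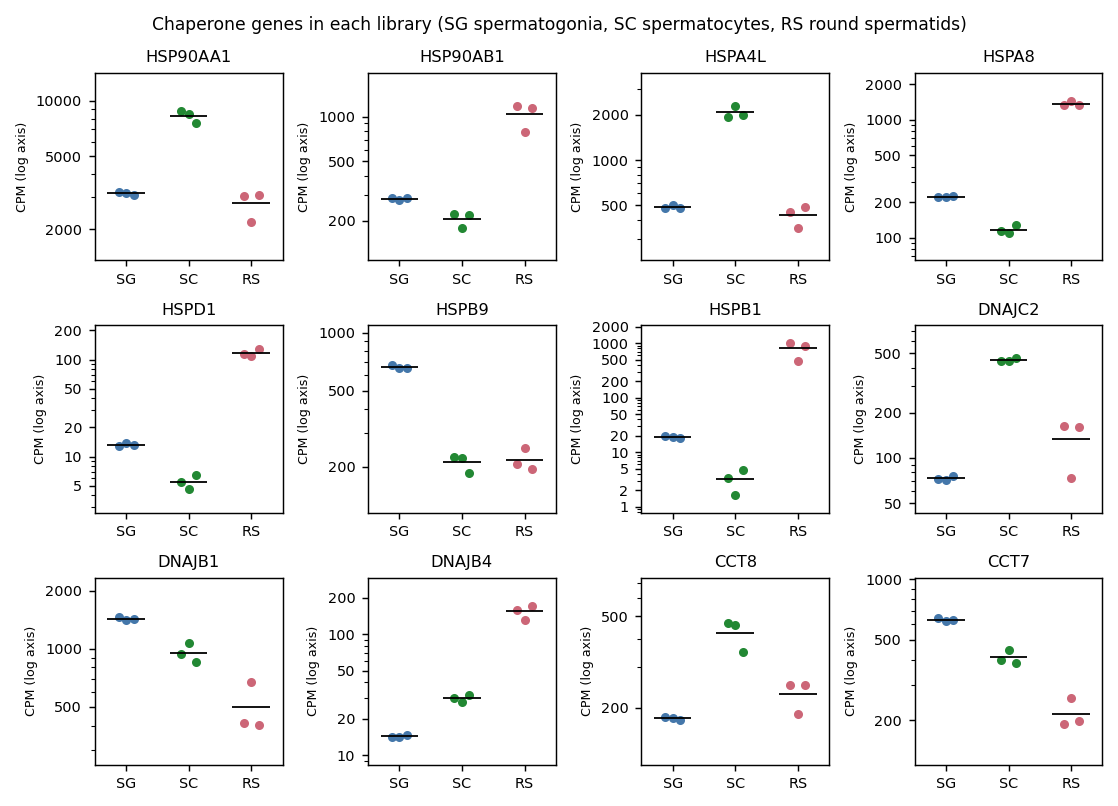
CPM of 12 chaperone genes in each library on a log axis, with points for the 3 libraries of spermatogonia (SG), spermatocytes (SC) and round spermatids (RS) and a line at the stage mean. HSP90AA1, HSPA4L, DNAJC2 and CCT8 are highest in spermatocytes, HSP90AB1, HSPA8, HSPD1, HSPB1 and DNAJB4 in round spermatids, and HSPB9, DNAJB1 and CCT7 in spermatogonia.

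The mitochondrial chaperonin showed the same fall and rise for both partners. HSPD1, the HSP60 barrel, stood at 12.7, 13.8 and 13.2 CPM in spermatogonia, 5.49, 4.69 and 6.39 CPM in spermatocytes and 114, 108 and 127 CPM in round spermatids. Round spermatids were 21.0-fold above spermatocytes (log2 4.39 ± 0.15 SE, edgeR adjusted p = 2.95e-09) and spermatocytes 2.39-fold below spermatogonia (log2 -1.26 ± 0.13 SE, edgeR adjusted p = 1.43e-05). HSPE1, the HSP10 lid, stood at 5.50, 5.32 and 5.02 CPM in spermatogonia, 4.25, 3.38 and 4.13 CPM in spermatocytes and 30.2, 25.9 and 29.0 CPM in round spermatids. It was 7.22-fold higher in round spermatids than in spermatocytes (log2 2.85 ± 0.14 SE, edgeR adjusted p = 2.59e-08), and its lower level in spermatocytes than in spermatogonia (log2 -0.43, edgeR adjusted p = 0.0141) was not called with RLE size factors (edgeR adjusted p = 0.111). HSPE1 lost its call of spermatocytes over spermatogonia without library spermatogonia 1 (log2 -0.40, edgeR adjusted p = 0.0535). These genes are neighbours in RefSeq's Sscrofa11.1, HSPD1 at 101360355 to 101373498 and HSPE1 at 101374019 to 101376146 of chromosome 15, with 520 bases between. Their TPM ratio, HSPE1 over HSPD1, was not constant, at 2.83 ± 0.20 in spermatogonia, 5.07 ± 0.47 in spermatocytes and 1.74 ± 0.13 in round spermatids (SD, n = 3 each).

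Of the 4 small heat shock proteins other than HSPB3, 3 were called higher in round spermatids than in both other stages, where the share over all genes was 30.1%, and HSPB9 was highest in spermatogonia. HSPB1 (HSP27), which binds actin and is abundant in muscle, stood at 19.5, 19.2 and 18.2 CPM in spermatogonia, 3.35, 1.62 and 4.63 CPM in spermatocytes and 1023, 476 and 904 CPM in round spermatids. It was 249-fold higher in round spermatids than in spermatocytes (log2 7.96 ± 0.45 SE, edgeR adjusted p = 6.75e-08) and 5.90-fold lower in spermatocytes than in spermatogonia (log2 -2.56 ± 0.36 SE, edgeR adjusted p = 1.07e-04). HSPB6 (HSP20), a regulator of smooth muscle tone, stood at 11.0, 11.2 and 11.2 CPM in spermatogonia, 15.6, 13.5 and 21.7 CPM in spermatocytes and 501, 146 and 444 CPM in round spermatids. All its round spermatid libraries were above the others (log2 4.42 ± 0.42 SE over spermatocytes, edgeR adjusted p = 3.06e-06), with library 2 far under 1 and 3. Without that library the difference was log2 4.80 (edgeR adjusted p = 4.46e-08). HSPB8, the partner of BAG3 in selective autophagy, stood at 1.29, 1.42 and 1.31 CPM in spermatogonia, 0.157, 0.349 and 0.325 CPM in spermatocytes and 26.7, 32.4 and 25.1 CPM in round spermatids. Round spermatids again exceeded both other stages without overlap, by log2 6.66 ± 0.25 SE over spermatocytes and 4.39 ± 0.20 SE over spermatogonia (edgeR adjusted p = 5.37e-09 and 3.69e-08). HSPB3, a muscle form, passed the filter on low counts through round spermatids alone. It had 26, 51 and 63 counts in round spermatids, against 0 counts in every spermatocyte library and 0, 2 and 0 counts in spermatogonia. Taking 3 counts per library as the floor, it was at least 13.0-fold higher in round spermatids than in spermatocytes. The 8 smooth muscle markers, MYH11 and ACTA2 among them, were likewise higher in round spermatids than in spermatocytes, with ACTA2 at 1004, 1301 and 963 CPM in round spermatids against 0.176, 0.109 and 1.05 CPM in spermatocytes. So were 11 of 12 Sertoli, 6 of 6 endothelial and 6 of 7 tested leukocyte markers. Between spermatocytes and spermatogonia HSPB1 and HSPB8 were called lower (log2 -2.56 and -2.27) and HSPB6 was not called (log2 0.60). There the median was -0.26 over smooth muscle and -3.69 over Sertoli markers. Round spermatid library 2 was the lowest for HSPB1 and HSPB6 and the highest for HSPB8. Smooth muscle markers were divided too, library 2 being lowest for MYH11 and highest for ACTA2. It was also lowest in the late germ cell sum, at 6107 CPM against 8834 and 7849 CPM in libraries 1 and 3, so this order was not particular to muscle markers. The part of smooth muscle or other somatic cells in these values was not tested.

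HSPB9, a small heat shock protein known as a testis antigen in humans, went the other way. It stood at 681, 653 and 653 CPM in spermatogonia, 226, 223 and 185 CPM in spermatocytes and 207, 252 and 195 CPM in round spermatids. Spermatogonia lay above all other libraries, so that spermatocytes were 3.13-fold lower (log2 -1.65 ± 0.13 SE, edgeR adjusted p = 2.40e-06) and round spermatids 3.04-fold lower (log2 -1.60 ± 0.13 SE, edgeR adjusted p = 1.07e-06) than spermatogonia. Round spermatids and spermatocytes overlapped (log2 0.044, edgeR adjusted p = 0.757). Per length it was the most abundant chaperone gene of spermatogonia, at 4443 ± 76.8 TPM in spermatogonia, 984 ± 53.7 TPM in spermatocytes and 1013 ± 459 TPM in round spermatids (SD, n = 3 each), and ranked 8 in the table in spermatogonia. HSPB1, in contrast, stood at 46.6, 46.7 and 44.1 TPM in spermatogonia.

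J-domain proteins of class A and B, the general partners of HSP70, moved in several directions. DNAJA1, the most abundant of class A and needed for sperm formation in mice, stood at 440.4, 437 and 446 CPM in spermatogonia, 982, 1019 and 981 CPM in spermatocytes and 751, 652 and 805 CPM in round spermatids. It was 2.25-fold higher in spermatocytes than in spermatogonia (log2 1.17 ± 0.11 SE, edgeR adjusted p = 5.41e-06), while its call between round spermatids and spermatocytes (log2 -0.43, edgeR adjusted p = 0.00287) turned to 0.018 without normalization factors. DNAJB1 (HSP40), the stress-inducible partner of HSP70 in the cytosol, declined instead, with 1458, 1399.8 and 1421 CPM in spermatogonia, 938, 1074 and 851 CPM in spermatocytes and 413, 676 and 401 CPM in round spermatids. Round spermatids were 2.87-fold below spermatogonia without overlap (log2 -1.52 ± 0.19 SE, edgeR adjusted p = 3.58e-05), and library 2 was the highest of the stage. The call of spermatocytes below spermatogonia (log2 -0.58, edgeR adjusted p = 0.0187) was lost with RLE size factors (edgeR adjusted p = 0.113), and that of round spermatids below spermatocytes (log2 -0.94, edgeR adjusted p = 9.96e-04) without normalization factors (edgeR adjusted p = 0.102). DNAJB1 lost its call of spermatocytes over spermatogonia when any of libraries spermatocyte 2 and 4 was left out (edgeR adjusted p = 0.0522 to 0.0638). The TPM ratio of DNAJB1 to DNAJA1 was 2.71 ± 0.055 in spermatogonia, 0.804 ± 0.078 in spermatocytes and 0.583 ± 0.25 in round spermatids (SD, n = 3 each).

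DNAJA2 rose at each stage, with 34.9, 35.0 and 36.4 CPM in spermatogonia, 52.6, 61.9 and 55.6 CPM in spermatocytes and 69.8, 62.3 and 74.2 CPM in round spermatids, the upper step being small (log2 0.28, edgeR adjusted p = 0.0352). DNAJA2 lost its call of round spermatids over spermatocytes when any of libraries spermatogonia 1, 2 and 3, spermatocyte 2 and 4 and round spermatid 1 and 3 was left out (edgeR adjusted p = 0.0616 to 0.133). DNAJA3, the mitochondrial form (TID1), was lowest in round spermatids at 9.92, 13.5 and 11.5 CPM, against 22.1, 23.1 and 17.5 CPM in spermatocytes (log2 -0.85 ± 0.15 SE, edgeR adjusted p = 3.54e-04). DNAJA4 stood at 87.3, 86.6 and 85.1 CPM in spermatogonia, 77.8, 50.2 and 82.3 CPM in spermatocytes and 153, 120.2 and 154 CPM in round spermatids. Round spermatids were highest and spermatocyte library 3 lowest, as for HSPA1L. Round spermatids over spermatocytes was log2 1.02 ± 0.18 SE (edgeR adjusted p = 3.46e-04).

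Within class B, 8 of 10 genes were called lower in round spermatids than in spermatocytes, where the share over all genes was 36.4%. That count was 8 with RLE factors and on TPM, and 5 without normalization factors. DNAJB4 was the gene called higher, and it rose throughout, with 14.2, 14.2 and 14.8 CPM in spermatogonia, 29.9, 27.8 and 31.5 CPM in spermatocytes and 159, 132 and 173 CPM in round spermatids. Its round spermatid libraries were 5.20-fold above spermatocytes (log2 2.38 ± 0.12 SE, edgeR adjusted p = 4.11e-08), and no stage overlapped another. DNAJB2, which carries ubiquitin-binding motifs, was lower in round spermatids, with 264, 263 and 262 CPM in spermatogonia, 226, 269 and 209.5 CPM in spermatocytes and 49.9, 67.4 and 50.8 CPM in round spermatids. The difference of round spermatids from spermatocytes was log2 -2.07 ± 0.15 SE (edgeR adjusted p = 3.21e-07). Spermatocytes over spermatogonia was not called for DNAJB2 (log2 -0.16, edgeR adjusted p = 0.31). Over 21 alternatives that value lay between -0.69 and 0.063, and 3 of them called it. DNAJB13, a J protein of the sperm flagellum, was highest in spermatogonia, with 117, 113 and 110.1 CPM in spermatogonia, 49.8, 50.5 and 41.3 CPM in spermatocytes and 30.3, 45.9 and 26.4 CPM in round spermatids. Spermatocytes were 2.40-fold lower than spermatogonia (log2 -1.26 ± 0.19 SE, edgeR adjusted p = 1.54e-04), and the step to round spermatids (log2 -0.46, edgeR adjusted p = 0.0405) turned to 0.029 without normalization factors. DNAJB13 lost its call of round spermatids over spermatocytes when any of libraries spermatogonia 1, 2 and 3, spermatocyte 2 and 3 and round spermatid 1 and 3 was left out (edgeR adjusted p = 0.0548 to 0.138).

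DNAJB14, an anchored protein of the endoplasmic reticulum, peaked in spermatocytes at 58.7, 61.7 and 47.7 CPM, against 26.6, 26.2 and 25.1 CPM in spermatogonia (log2 1.11 ± 0.12 SE, edgeR adjusted p = 1.61e-05), with 17.5, 18.0 and 17.0 CPM in round spermatids. DNAJB12, its close relative, did not share that peak and stood at 35.3, 47.5 and 36.3 CPM in round spermatids, against 82.3, 95.8 and 85.9 CPM in spermatocytes (log2 -1.15 ± 0.13 SE, edgeR adjusted p = 1.27e-05). DNAJB9 and DNAJB11, partners of BiP, were not called highest in round spermatids, unlike HSPA5. DNAJB9 (ERdj4) stood at 108, 107 and 100.2 CPM in spermatogonia, 196, 189.7 and 181 CPM in spermatocytes and 154, 131 and 155 CPM in round spermatids, with spermatocytes log2 0.84 over spermatogonia (edgeR adjusted p = 3.77e-05). DNAJB11 (ERdj3) stood at 82.1, 80.3 and 81.3 CPM in spermatogonia, 109, 113 and 86.0 CPM in spermatocytes and 44.3, 51.7 and 43.7 CPM in round spermatids. Its higher level in spermatocytes than in spermatogonia (log2 0.34, edgeR adjusted p = 0.0304) turned to -0.086 without normalization factors. DNAJB11 lost its call of spermatocytes over spermatogonia when any of libraries spermatogonia 1, 2 and 3 and spermatocyte 2 and 3 was left out (edgeR adjusted p = 0.0781 to 0.0933). The call of DNAJB9 below spermatocytes (log2 -0.37, edgeR adjusted p = 0.00669) turned to 0.084 without normalization factors. DNAJB6, which holds aggregation-prone proteins in solution, stood at 451, 445 and 453 CPM in spermatogonia, 579, 621 and 472 CPM in spermatocytes and 335, 286 and 334 CPM in round spermatids, lowest in round spermatids (log2 -0.81 ± 0.12 SE from spermatocytes, edgeR adjusted p = 1.22e-04). Its higher level in spermatocytes than in spermatogonia (log2 0.31, edgeR adjusted p = 0.0407) turned to -0.12 without normalization factors. DNAJB6 lost its call of spermatocytes over spermatogonia when any of libraries spermatogonia 1, 2 and 3, spermatocyte 2 and 3 and round spermatid 3 was left out (edgeR adjusted p = 0.0516 to 0.132). DNAJB5 was higher in spermatocytes, at 52.3, 50.2 and 40.9 CPM against 16.4, 15.6 and 16.5 CPM in spermatogonia (log2 1.56 ± 0.29 SE, edgeR adjusted p = 6.41e-04), and in round spermatids, at 47.2, 18.3 and 42.2 CPM, library 2 lay near the spermatogonia.

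Class C, the specialised J proteins, had 13 of 25 genes called higher in spermatocytes than in spermatogonia and 5 called lower, beside 29.3% and 44.0% over all genes. The widest of these belonged to DNAJC2 (MPP11), the ribosome-bound J protein that partners HSPA14. It stood at 72.4, 71.2 and 75.4 CPM in spermatogonia, 444, 443 and 465 CPM in spermatocytes and 164, 73.5 and 162 CPM in round spermatids. Spermatocytes were 6.17-fold above spermatogonia (log2 2.63 ± 0.26 SE, edgeR adjusted p = 9.87e-06), while its partner HSPA14 was 1.52-fold above (log2 0.60 ± 0.11 SE, edgeR adjusted p = 5.84e-04). The call of HSPA14 was lost without normalization factors (log2 0.18, edgeR adjusted p = 0.183) and on TPM (log2 0.073, limma adjusted p = 0.736), while that of DNAJC2 held. In round spermatids library 2 fell to the spermatogonia level while 1 and 3 did not, and the stage was log2 -1.76 ± 0.25 SE from spermatocytes (edgeR adjusted p = 7.56e-05). DNAJC3 (p58IPK), a J protein in the endoplasmic reticulum, stood at 104, 101 and 98.8 CPM in spermatogonia, 296, 307 and 258 CPM in spermatocytes and 83.0, 71.5 and 84.5 CPM in round spermatids. Its peak in spermatocytes was 2.83-fold over spermatogonia and round spermatids were 3.60-fold below spermatocytes (edgeR adjusted p = 1.75e-06 and 1.04e-07). DNAJC7 (TPR2), which binds both HSP70 and HSP90, had the same shape at 97.8, 98.4 and 98.4 CPM in spermatogonia, 203, 210.4 and 177 CPM in spermatocytes and 71.7, 66.0 and 68.5 CPM in round spermatids (edgeR adjusted p = 1.01e-05 for spermatocytes over spermatogonia and 2.07e-07 for round spermatids over spermatocytes).

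DNAJC13 (RME-8), a protein of endosomes, peaked in spermatocytes at 85.3, 130.4 and 126 CPM, against 47.4, 50.0 and 48.2 CPM in spermatogonia (log2 1.23 ± 0.16 SE, edgeR adjusted p = 5.12e-05), with 31.9, 37.2 and 34.8 CPM in round spermatids. DNAJC16 had 135, 133 and 123 CPM in spermatocytes against 71.7, 73.0 and 73.9 CPM in spermatogonia, and DNAJC27 had 47.8, 58.3 and 41.4 CPM in spermatocytes against 19.8, 18.3 and 19.4 CPM in spermatogonia (edgeR adjusted p = 2.88e-04 and 1.49e-05). Both then stood lower in round spermatids (log2 -1.65 and -1.59 over spermatocytes, edgeR adjusted p = 1.29e-06 and 2.24e-06). DNAJC24 (DPH4), which acts in the synthesis of diphthamide, rose to 14.6, 10.5 and 14.8 CPM in spermatocytes, against 3.66, 3.41 and 3.46 CPM in spermatogonia (log2 1.92 ± 0.25 SE, edgeR adjusted p = 6.54e-05), and kept 13.8, 7.15 and 13.8 CPM in round spermatids. DNAJC25 rose further at each stage from a low level, with 0.852, 0.991 and 1.01 CPM in spermatogonia, 3.70, 3.14 and 1.97 CPM in spermatocytes and 15.4, 10.4 and 17.6 CPM in round spermatids. Its round spermatid libraries were 4.92-fold above spermatocytes (log2 2.30 ± 0.26 SE, edgeR adjusted p = 1.21e-05). DNAJC19 (TIM14), the J protein of the mitochondrial import motor, also increased, with 1.92, 1.88 and 2.04 CPM in spermatogonia, 3.94, 3.14 and 2.76 CPM in spermatocytes and 5.50, 5.72 and 6.40 CPM in round spermatids (edgeR adjusted p = 0.00249 and 8.39e-04 for the 2 steps). Its first step was not called without normalization factors (log2 0.33, edgeR adjusted p = 0.127) or on TPM (log2 0.19, limma adjusted p = 0.449). DNAJC15, its relative in the same motor, stood at 28.4, 28.8 and 26.2 CPM in round spermatids, against 56.5, 55.7 and 45.1 CPM in spermatocytes (log2 -0.91 ± 0.12 SE, edgeR adjusted p = 3.02e-05).

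DNAJC10 (ERdj5), a reductase that works with BiP, was higher in round spermatids, at 49.3, 55.0 and 53.7 CPM against 33.9, 35.9 and 40.9 CPM in spermatocytes (log2 0.51 ± 0.11 SE, edgeR adjusted p = 0.00112). DNAJC1 (ERdj1) was lower in round spermatids, at 52.2, 28.3 and 47.2 CPM against 71.2, 63.8 and 51.7 CPM in spermatocytes (log2 -0.55 ± 0.21 SE, edgeR adjusted p = 0.0316). DNAJC1 lost its call of round spermatids over spermatocytes when any of libraries spermatocyte 2 and 3 was left out (edgeR adjusted p = 0.0641 to 0.11). DNAJC5, the cysteine-string protein of exocytosis, was lowest in spermatocytes, with 20.4, 20.5 and 19.7 CPM in spermatogonia, 15.7, 13.1 and 11.5 CPM in spermatocytes and 30.9, 24.5 and 25.9 CPM in round spermatids (edgeR adjusted p = 0.00364 and 7.22e-05 for spermatocytes over spermatogonia and round spermatids over spermatocytes). Its close relative DNAJC5B, known for its level in testis, was called in no comparison, with 85.4, 82.5 and 81.5 CPM in spermatogonia, 97.6, 57.5 and 155 CPM in spermatocytes and 123, 73.1 and 115 CPM in round spermatids. Spermatocyte library 3 was lowest and 4 highest of all. Without library 3 spermatocytes were called higher than spermatogonia (log2 0.61, edgeR adjusted p = 0.0459). DNAJC6 (auxilin), which uncoats clathrin vesicles, and DNAJC12, DNAJC22 and DNAJC28 averaged under 5 CPM in every stage. Of these, DNAJC12 was called higher at each step (log2 0.78 and 1.22, edgeR adjusted p = 0.0488 and 0.00268). DNAJC12 lost its call of spermatocytes over spermatogonia when any of libraries spermatogonia 1, 2 and 3, spermatocyte 2 and 3 and round spermatid 1 and 3 was left out (edgeR adjusted p = 0.0567 to 0.178). DNAJC14 had 45.9, 56.8 and 45.2 CPM in round spermatids against 109, 132 and 117 CPM in spermatocytes (edgeR adjusted p = 3.10e-06), and DNAJC18 47.4, 47.5 and 46.8 CPM in round spermatids against 92.3, 92.8 and 94.8 CPM in spermatocytes (edgeR adjusted p = 1.66e-06). DNAJC4 was highest in spermatogonia, so that spermatocytes had 9.62, 11.2 and 6.62 CPM against 23.5, 23.2 and 21.6 CPM in spermatogonia (log2 -1.32 ± 0.18 SE, edgeR adjusted p = 9.70e-05). DNAJC8, a splicing-associated protein, and DNAJC17 were higher in spermatocytes than in spermatogonia (log2 1.01 and 0.96, edgeR adjusted p = 8.76e-04 and 9.22e-04). DNAJC9, a histone chaperone, and DNAJC11, a protein of mitochondrial cristae, were called in no comparison, their log2 fold changes lying between -0.14 and 0.18.

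**Figure D3:**
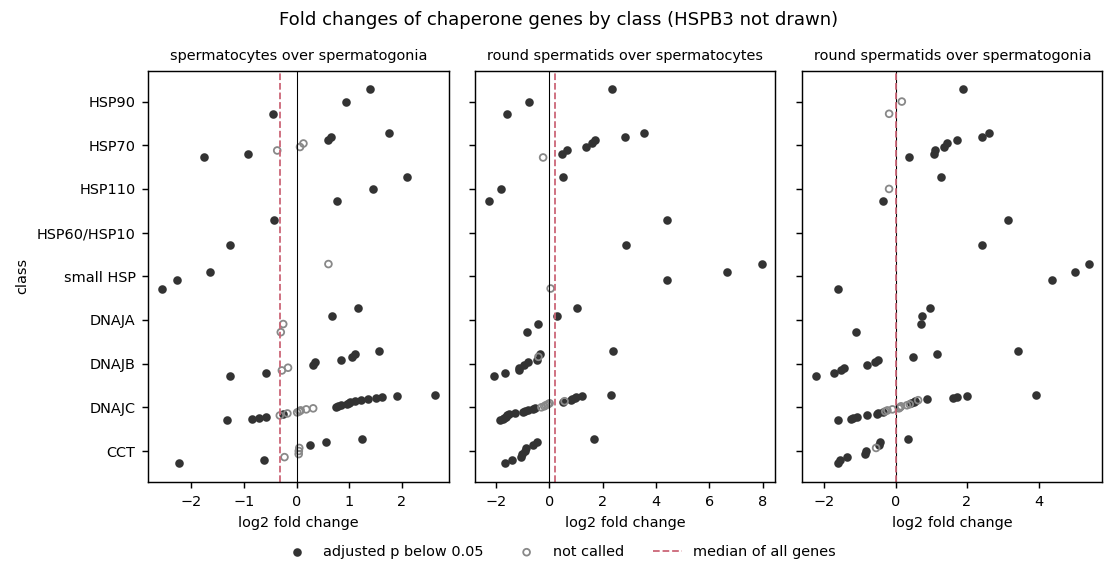
Log2 fold changes of 68 chaperone genes (HSPB3 is not drawn) by class for the 3 comparisons, with filled points for genes called by edgeR, open points for the others and a dashed line at the median of all genes. HSP70, HSP60/HSP10 and small heat shock proteins lie mostly to the right in both comparisons of round spermatids, and CCT and DNAJB genes mostly to the left of 0 in round spermatids over spermatocytes.

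The CCT ring is built from 8 kinds of subunit in equal number. Of the 9 genes, 3 (33.3%) were called higher and 2 (22.2%) lower in spermatocytes than in spermatogonia, beside 29.3% and 44.0% over all genes, and 8 were called lower in round spermatids than in spermatocytes (6 without normalization factors, 7 on TPM), beside 36.4% over all genes. CCT8 rose most between the earlier stages, with 183, 180.0 and 177 CPM in spermatogonia, 469, 458 and 349 CPM in spermatocytes and 252, 187 and 250.3 CPM in round spermatids. Spermatocytes were 2.36-fold above spermatogonia (log2 1.24 ± 0.15 SE, edgeR adjusted p = 3.69e-05) and round spermatids lower again (log2 -0.89 ± 0.15 SE, edgeR adjusted p = 2.48e-04). The call of round spermatids over spermatogonia (log2 0.35, edgeR adjusted p = 0.0485) turned to -0.27 on TPM. CCT8 lost its call of round spermatids over spermatogonia when any of libraries spermatogonia 1, 2 and 3, spermatocyte 2 and 3 and round spermatid 1 and 3 was left out (edgeR adjusted p = 0.0562 to 0.155). CCT7 fell throughout, with 640.1, 618 and 627 CPM in spermatogonia, 398, 447 and 385 CPM in spermatocytes and 191, 258 and 197 CPM in round spermatids. It was 1.53-fold lower in spermatocytes than in spermatogonia (log2 -0.62 ± 0.13 SE, edgeR adjusted p = 0.0015), and no stage overlapped another. CCT2 stood at 239.6, 234 and 233 CPM in spermatogonia, 354, 365 and 315 CPM in spermatocytes and 154, 194 and 162 CPM in round spermatids, a peak that was not called over spermatogonia without normalization factors (edgeR adjusted p = 0.452). TCP1, the alpha subunit, had 567, 556 and 557 CPM in spermatogonia, 688, 728 and 596 CPM in spermatocytes and 313, 323 and 316 CPM in round spermatids. Its small excess in spermatocytes over spermatogonia (log2 0.26, edgeR adjusted p = 0.0387) turned to -0.16 without normalization factors. TCP1 lost its call of spermatocytes over spermatogonia when any of libraries spermatogonia 1, 2 and 3, spermatocyte 2 and 3 and round spermatid 3 was left out (edgeR adjusted p = 0.0507 to 0.116). Its round spermatids were lowest (log2 -1.08 ± 0.10 SE from spermatocytes, edgeR adjusted p = 3.10e-06).

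CCT6B, the form of the zeta subunit made mainly in testis in humans and mice, had 199.6, 195 and 198 CPM in spermatogonia, 215, 219.9 and 175 CPM in spermatocytes and 63.2, 66.0 and 63.2 CPM in round spermatids. It fell most of the ring genes between spermatocytes and round spermatids, which were 3.17-fold lower (log2 -1.66 ± 0.11 SE, edgeR adjusted p = 2.01e-07), and the earlier stages overlapped. CCT3 had 711, 699.9 and 688 CPM in spermatogonia, 688, 871 and 613 CPM in spermatocytes and 251, 320.4 and 252 CPM in round spermatids, again with overlap between the earlier stages and round spermatids lowest (log2 -1.40 ± 0.15 SE from spermatocytes, edgeR adjusted p = 8.45e-06). CCT4 had 159, 155 and 153 CPM in spermatogonia, 161, 174 and 145 CPM in spermatocytes and 106, 131 and 109 CPM in round spermatids. Its lower level in round spermatids than in spermatocytes (log2 -0.47, edgeR adjusted p = 0.00334) turned to 0.0077 without normalization factors. CCT5 stood at 215, 278 and 212 CPM in round spermatids, against 368, 401 and 326 CPM in spermatocytes (log2 -0.64, edgeR adjusted p = 9.99e-04), and was not called without normalization factors (edgeR adjusted p = 0.4). CCT8L2, a CCT8-like gene, was the single gene of the class called higher in round spermatids than in spermatocytes, with 27.5, 27.5 and 28.0 CPM in spermatogonia, 6.78, 3.01 and 7.88 CPM in spermatocytes and 17.2, 24.0 and 15.6 CPM in round spermatids (log2 1.68 ± 0.30 SE over spermatocytes, edgeR adjusted p = 3.94e-04). Among the 8 subunit genes with values, the TPM of the highest was 8.58 ± 0.025 times that of the lowest in spermatogonia, 9.35 ± 0.89 times in spermatocytes and 9.13 ± 2.7 times in round spermatids (SD, n = 3 each). These spreads rest in part on the gene lengths behind the deposited TPM, which were not examined. In spermatogonia CCT7 averaged 628 CPM and 145 TPM, whereas CCT6B averaged 197 CPM and 367 TPM.

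Added per length, the 69 genes made up 17652 ± 121 TPM in spermatogonia, 17766 ± 288 TPM in spermatocytes and 12737 ± 2739 TPM in round spermatids (SD, n = 3 each), with round spermatid library 2 at 15887 TPM and libraries 1 and 3 at 11414 and 10912 TPM. TMM factors do not enter these sums, and the deposited TPM of all genes added up to 882081 to 923269 in round spermatids, against 960273 to 968076 in the other libraries. HSP70.2, at 1033 to 1132 CPM in round spermatids, and the unmatched HSPA2 are not among the 69 genes and are missing from the HSP70 sum. HSP90 supplied 27.0 ± 0.18% of the chaperone TPM in spermatogonia, 44.0 ± 1.2% in spermatocytes and 27.2 ± 2.3% in round spermatids. HSP70 supplied 6.23 ± 0.067%, 4.47 ± 0.52% and 21.7 ± 3.1% in the same order, small heat shock proteins 25.5 ± 0.30%, 5.63 ± 0.22% and 19.4 ± 2.1%, HSP110 4.54 ± 0.098%, 10.6 ± 0.75% and 4.38 ± 0.17%, and CCT 15.5 ± 0.034%, 13.0 ± 0.83% and 8.28 ± 0.93%. Spermatocytes thus had the highest HSP90 and HSP110 shares in all 3 libraries and round spermatids the highest HSP70 share. The small heat shock share came from different genes at either end: HSPB9 led it in spermatogonia, and HSPB1, at 1387, 1049 and 1194 TPM, exceeded HSPB9, at 779, 1541 and 717 TPM, in round spermatid libraries 1 and 3 and not in 2.

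**Figure D4:**
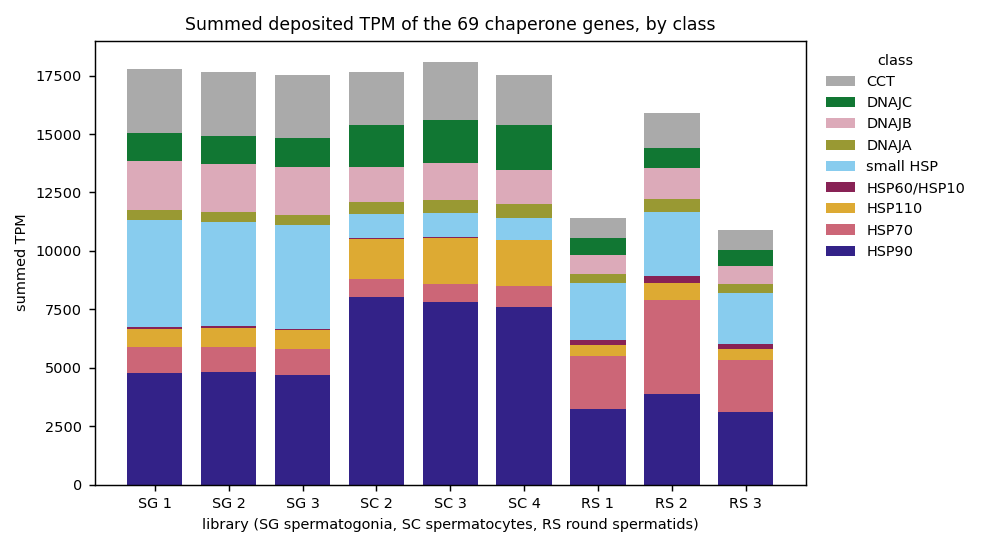
Stacked bars of deposited TPM summed over the 69 chaperone genes, which do not include HSP70.2, in each library, by class. HSP90 is the largest block in spermatocytes (44.0% of the sum), the HSP70 block widens in round spermatids (21.7%), and round spermatid library 2 has a taller bar (15887 TPM) than libraries 1 and 3.

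Genes that work with these chaperones were followed as 6 further lists. Over all genes, 29.3% were called higher and 44.0% lower in spermatocytes than in spermatogonia, 42.7% and 36.4% in round spermatids than in spermatocytes, and 39.5% and 39.7% in round spermatids than in spermatogonia. Heat shock transcription factors and their binders (6 of 7 found) had 1 called higher and 4 lower in spermatocytes than in spermatogonia, and 3 lower in round spermatids than in either other stage. In round spermatids 2 were called higher than in spermatocytes (HSF4 and HSBP1L1) and 2 higher than in spermatogonia (HSF2 and HSBP1L1). HSF1, the factor that switches on stress-inducible heat shock genes and named here for that role, had 302, 303 and 311 CPM in spermatogonia, 259, 255 and 244 CPM in spermatocytes and 150.2, 127 and 139 CPM in round spermatids. It fell at both steps (log2 -0.27 and -0.86, edgeR adjusted p = 0.0244 and 1.12e-05), and was thus lowest in round spermatids. HSF1 lost its call of spermatocytes over spermatogonia when any of libraries spermatogonia 1, 2 and 3 and spermatocyte 4 was left out (edgeR adjusted p = 0.0504 to 0.0855). HSF5, a germ cell factor in mice with the highest mean CPM of the list in each stage, had 175, 143 and 189.6 CPM in round spermatids against 445, 535 and 543 CPM in spermatocytes (log2 -1.58, edgeR adjusted p = 1.06e-06). HSF2, by contrast, was higher in round spermatids, at 57.7, 44.2 and 60.9 CPM against 29.8, 28.8 and 28.8 CPM in spermatogonia (log2 0.90, edgeR adjusted p = 0.00355), but not on TPM (log2 0.27, limma adjusted p = 0.332).

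HSP70 cochaperones outside the J proteins (13 of 14 found) had 4 called higher and 7 lower in spermatocytes than in spermatogonia, 5 (38.5%) higher and 6 (46.2%) lower in round spermatids than in spermatocytes, beside 42.7% and 36.4% over all genes, and 2 higher and 7 lower in round spermatids than in spermatogonia, beside 39.5% and 39.7%. BAG3, the exchange factor that pairs with HSPB8, had 78.0, 79.3 and 83.1 CPM in spermatogonia, 136, 130.3 and 164 CPM in spermatocytes and 931, 531 and 869.8 CPM in round spermatids. Like HSPB8, BAG3 was highest in round spermatids (log2 2.44 over spermatocytes, edgeR adjusted p = 9.89e-07). Within that stage library 2 was lowest for BAG3 and highest for HSPB8. For spermatocytes over spermatogonia the log2 fold change was 0.84 for BAG3 and -2.27 for HSPB8. BAG6, which guards mislocalised membrane proteins and had the highest CPM of the list in spermatogonia, fell at both steps, with 2318, 2353 and 2314 CPM in spermatogonia, 1320.4, 1525 and 1491 CPM in spermatocytes and 720.4, 846 and 741 CPM in round spermatids. HYOU1, the HSP110 of the endoplasmic reticulum, had 1359, 1335 and 1368 CPM in spermatogonia, 2074, 2240.2 and 1747 CPM in spermatocytes and 399, 388 and 392 CPM in round spermatids. It fell in round spermatids as HSPA4 and HSPA4L did (log2 -2.36 from spermatocytes, edgeR adjusted p = 3.07e-08), where HSPA5, whose nucleotide it exchanges, rose. Its higher level in spermatocytes than in spermatogonia (log2 0.58, edgeR adjusted p = 8.96e-04) was not called without normalization factors (log2 0.15, edgeR adjusted p = 0.209) or on TPM (log2 0.046, limma adjusted p = 0.845), unlike those of HSPA4 and HSPA4L.

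HSP90 cochaperones with the mitochondrial HSP90 (17 of 17 found) had 8 called higher and 6 lower in spermatocytes than in spermatogonia, and 3 higher and 14 lower in round spermatids than in spermatocytes, beside 42.7% and 36.4% over all genes. Against spermatogonia, 6 were called higher and 6 lower in round spermatids. FKBP4, an immunophilin with the highest mean CPM of the list in each stage, stood at 1188, 1163 and 1161 CPM in spermatogonia, 1545, 1741 and 1427 CPM in spermatocytes and 528, 523 and 541 CPM in round spermatids, with round spermatids log2 -1.57 from spermatocytes (edgeR adjusted p = 2.41e-07). FKBP6, a germ cell immunophilin needed for meiosis in male mice, had 45.3, 46.1 and 39.3 CPM in round spermatids against 267, 307 and 229.5 CPM in spermatocytes (log2 -2.62, edgeR adjusted p = 3.07e-08). UNC45A, a myosin chaperone, was among the 3 called higher, with 19.0, 30.9 and 21.7 CPM in round spermatids against 2.27, 2.38 and 1.80 CPM in spermatocytes (log2 3.47, edgeR adjusted p = 9.48e-08).

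Prefoldin and CCT partners (14 of 16 found) had 8 called higher and 4 lower in spermatocytes than in spermatogonia, beside 29.3% and 44.0% over all genes, and 6 (42.9%) higher and 8 (57.1%) lower in round spermatids than in spermatocytes, beside 42.7% and 36.4%. Against spermatogonia, 5 (35.7%) were called higher and 4 (28.6%) lower in round spermatids, beside 39.5% and 39.7%. PFDN1, a prefoldin subunit, had 72.3, 69.5 and 71.7 CPM in spermatogonia, 234, 215 and 146 CPM in spermatocytes and 79.8, 58.4 and 71.9 CPM in round spermatids, highest in spermatocytes (log2 1.48 over spermatogonia, edgeR adjusted p = 3.77e-05). PDCL3, a phosducin-like partner of CCT, rose throughout, with 23.7, 18.9 and 24.8 CPM in round spermatids against 3.44, 3.43 and 2.89 CPM in spermatogonia (log2 2.79, edgeR adjusted p = 1.34e-07). MKKS, a CCT-like protein of the BBS chaperonin, had 15.2, 15.0 and 13.4 CPM in round spermatids against 47.8, 47.9 and 46.6 CPM in spermatocytes (log2 -1.70, edgeR adjusted p = 1.12e-07). Lectin and disulfide chaperones of the endoplasmic reticulum (13 of 14 found) had 4 called higher and 6 lower in spermatocytes than in spermatogonia and 5 (38.5%) each way in round spermatids over spermatocytes, and 4 (30.8%) each way in round spermatids over spermatogonia, beside 42.7% and 36.4%, and 39.5% and 39.7%, over all genes. CLGN (calmegin), the germ cell lectin needed for sperm binding to the egg in mice, had the highest CPM of the list in spermatocytes, with 909, 896 and 895 CPM in spermatogonia, 7439, 7496 and 6113 CPM in spermatocytes and 857, 433 and 832 CPM in round spermatids. Spermatocytes exceeded all other libraries (log2 2.96 over spermatogonia, edgeR adjusted p = 3.04e-06). SERPINH1 (HSP47), the collagen chaperone, had 288, 374 and 276 CPM in round spermatids against 0.470, 0.284 and 0.842 CPM in spermatocytes (log2 9.18, edgeR adjusted p = 4.35e-09). It shared the higher round spermatid level of the smooth muscle, Sertoli, endothelial and leukocyte markers. Mitochondrial proteases and unfoldases (7 of 8 found) had 1 called higher and 3 lower in spermatocytes than in spermatogonia, and 2 higher and 4 lower in round spermatids than in spermatocytes, beside 42.7% and 36.4% over all genes. In round spermatids over spermatogonia, 6 of 7 were called lower by edgeR, beside 39.7% over all genes. The unfoldase CLPX had 98.1, 96.5 and 97.6 CPM in spermatogonia, 367, 383 and 331 CPM in spermatocytes and 129, 93.9 and 131 CPM in round spermatids, highest in spermatocytes (log2 1.89 over spermatogonia, edgeR adjusted p = 1.75e-06), the stage in which HSPD1 and HSPE1 were lowest.

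In RefSeq's Sscrofa11.1, the build named in the submitters' processing notes, 67 of the 69 genes were placed by symbol, on 18 chromosomes and none on X. Of these, 25 overlapped another annotated gene, among them HSP90AB1 with SLC35B2, DNAJB13 with UCP2 and TCP1 with ACAT2. No source used here states whether the counting used strand, so reads of such pairs may be shared.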

How the data were processed

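Per the labels' protocols, total RNA from pig testis cells was made into directional libraries and sequenced as read pairs. The submitters' processing notes name the build Sscrofa11.1 and bcl2fastq, and no source used here names the aligner, the quantifier or the annotation. The authors deposited a table of estimated counts and a table of TPM, whose columns used here sum to 882081 to 968076. Of 15 library columns, 6 were not used.

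Estimated counts were rounded. Genes were filtered with filterByExpr, scaled with TMM and fitted over 9 libraries by the quasi-likelihood method of edgeR 4.0.16 under R 4.3.3, an adjusted p under 0.05 being a call. The standard error is the absolute log2 fold change over the square root of F. TPM was tested with limma 3.58.1 on log2(TPM + 1) and log2(TPM + 0.1), which understates changes of low genes, and DESeq2 1.42.0 was an alternative. The edgeR procedure was also run on counts simulated with equal spread in every stage. That run cannot bear on the unequal spread of these libraries. Figures used matplotlib 3.10.9.

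Members and lists were chosen with earlier results of these data known. Named genes were a set chosen by role, the 6 largest changes per direction with at least 10 CPM and no overlap, the most abundant of each class and up to 3 per further list, with HSF1 added for its role. Other members were added to account for their class. Counting error bears most on the genes of few counts.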

Additional observations from a re-analysis of the deposited data

How the results depend on the processing

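Over 21 alternatives, the counts of members called in round spermatids over spermatocytes stayed within 1.5 times in both directions, but their balance of 26 higher and 34 lower turned to 30 and 24 without normalization factors. Within 1.5 times too were members lower in round spermatids than in spermatogonia. Members higher in spermatocytes than in spermatogonia numbered 32 with TMM factors and 19 on TPM with either pseudocount, where 25 were lower. Members lower in that comparison numbered 17, against 28 without normalization factors, 10 without a filter, 9 when tested against a fold change of 1.5 (TREAT) and 11 with the spermatogonia libraries summed. Members higher in round spermatids than in spermatogonia numbered 31, against 18 on TPM with either pseudocount, where 33 were lower. With 1 library left out at a time, members higher and lower numbered 28 to 34 and 14 to 19 in spermatocytes over spermatogonia, 25 to 26 and 32 to 36 in round spermatids over spermatocytes, and 27 to 32 and 24 to 26 in round spermatids over spermatogonia. With the spermatogonia libraries summed into 1, the median log2 fold change of members was 0.12 against -0.39 over all genes for spermatocytes over spermatogonia. For round spermatids over spermatogonia it was 0.098 against -0.038.

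With the replicate block the counts higher and lower were 32 and 15 for spermatocytes over spermatogonia, 26 and 35 for round spermatids over spermatocytes, and 32 and 26 for round spermatids over spermatogonia. Same-numbered libraries did not deviate together, with correlations of deviations between -0.12 and 0.042. Of 3 round spermatid libraries, 1 correlated best with its own number among spermatogonia. Members under 1 CPM, such as HSPB3 and DNAJC12 in the earlier stages, are limited by depth.

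The 255 log2 fold changes of 85 named genes were recomputed under these alternatives. Of the values obtained, 4799 kept their direction and their side of the threshold, 284 lost a call, 119 gained a call and 146 changed sign. The log2 fold changes that changed sign follow. For spermatocytes over spermatogonia, without normalization factors CCT3 was -0.38, CCT4 -0.39, CCT6B -0.38, DNAJB11 -0.086, DNAJB6 -0.12, DNAJC10 -0.41, DNAJC11 -0.37, DNAJC14 -0.35, DNAJC5B -0.085, DNAJC9 -0.24, HSPA12A -0.35, HSPA5 -0.29, TCP1 -0.16, HSF5 -0.28, FKBP4 -0.00070 and MKKS -0.19. On TPM + 1 CCT3 was -0.49, CCT4 -0.48, CCT6B -0.49, DNAJB11 -0.19, DNAJB6 -0.22, DNAJC10 -0.50, DNAJC11 -0.45, DNAJC14 -0.45, DNAJC5B -0.32, DNAJC9 -0.31, HSPA12A -0.36, HSPA5 -0.39, TCP1 -0.27, HSF5 -0.39, FKBP4 -0.10 and MKKS -0.28. On TPM + 0.1 CCT3 was -0.49, CCT4 -0.49, CCT6B -0.49, DNAJB11 -0.19, DNAJB6 -0.22, DNAJC10 -0.52, DNAJC11 -0.47, DNAJC14 -0.45, DNAJC5B -0.32, DNAJC9 -0.35, HSPA12A -0.45, HSPA5 -0.40, TCP1 -0.27, HSF5 -0.39, FKBP4 -0.10 and MKKS -0.29. With RLE factors DNAJB2 was 0.023, DNAJC15 0.010 and FKBP6 0.16. With DESeq2 DNAJB2 was 0.023, DNAJC15 0.010 and FKBP6 0.16. Without a filter DNAJB2 was 0.063, DNAJC15 0.050 and FKBP6 0.20. With at least 1 CPM in 3 libraries DNAJC10 was -0.011. With the compared stages alone DNAJB2 was 0.037, DNAJC15 0.026 and FKBP6 0.17. With the replicate block DNAJC10 was -0.094, DNAJC5B -0.033 and FKBP6 0.090. With spermatogonia summed CCT3 was -0.017, CCT4 -0.028, CCT6B -0.026, DNAJC10 -0.057, DNAJC11 -0.016 and HSPA12A -0.0023. With 1 library left out at a time, CCT3 lay between -0.10 and 0.16, CCT4 between -0.023 and 0.11, CCT6B between -0.016 and 0.14, DNAJC10 between -0.068 and 0.067, DNAJC11 between -0.0042 and 0.11, DNAJC5B between -0.10 and 0.61, HSPB3 between -2.94 and 0.0 and FKBP6 between -0.14 and 0.071.

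For round spermatids over spermatocytes, without normalization factors CCT4 was 0.0077, DNAJA1 0.018, DNAJB13 0.029, DNAJB5 0.0074, DNAJB9 0.084, DNAJC11 0.32, DNAJC24 0.22, DNAJC4 0.17, DNAJC9 0.41 and HSPA14 0.22. On TPM + 1 DNAJC5B was -0.0082 and HSPB9 -0.048. On TPM + 0.1 DNAJC5B was -0.0067 and HSPB9 -0.048. With RLE factors DNAJC5B was -0.10 and HSPB9 -0.065. With DESeq2 DNAJC5B was -0.10 and HSPB9 -0.065. Without a filter DNAJC5B was -0.20 and HSPB9 -0.15. With at least 1 CPM in 3 libraries DNAJC9 was 0.0086. With the replicate block HSPB9 was -0.042. With spermatogonia summed DNAJC5B was -0.0064. With 1 library left out at a time, DNAJC24 lay between -0.35 and 0.054, DNAJC5B between -0.29 and 0.41, DNAJC9 between -0.15 and 0.068 and HSPB9 between -0.075 and 0.11.

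For round spermatids over spermatogonia, without normalization factors PFDN1 was 0.0024. On TPM + 1 CCT8 was -0.27, DNAJB9 -0.14, DNAJC1 -0.10, DNAJC10 -0.086, DNAJC17 -0.46, DNAJC5 -0.19, DNAJC5B -0.33, DNAJC6 -0.25, DNAJC8 -0.26, DNAJC9 -0.43, HSP90B1 -0.44, HSPA14 -0.24 and CLPX -0.35. On TPM + 0.1 CCT8 was -0.27, DNAJB9 -0.14, DNAJC1 -0.10, DNAJC10 -0.090, DNAJC17 -0.48, DNAJC5 -0.20, DNAJC5B -0.33, DNAJC6 -0.47, DNAJC8 -0.27, DNAJC9 -0.48, HSP90B1 -0.44, HSPA14 -0.25 and CLPX -0.35. With RLE factors PFDN1 was 0.045. With DESeq2 PFDN1 was 0.045. With at least 1 CPM in 3 libraries PFDN1 was 0.017. With the compared stages alone PFDN1 was 0.018. With 1 library left out at a time, DNAJC6 lay between -0.019 and 0.19 and PFDN1 between -0.13 and 0.091. The cause was not tested.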
